A study of Mus musculus with 4 samples.

Results

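The liver response to the PPARα agonist Wy14643 was compared between wild-type and PPARα-null mice that had both received the compound. The comparison rests on 2 of the 4 Affymetrix MOE430A arrays of the experiment: 1 array of pooled liver RNA from wild-type mice fed Wy14643 at 0.1% of the chow for 5 days, and 1 array of pooled liver RNA from PPARα-null mice given the same diet. The other 2 arrays, used here as a reference, hold pooled liver RNA of wild-type and PPARα-null mice on the control chow. All mice were males of the Sv129 background, 12 to 20 weeks old, labelled as 129S1/SvImJ for the wild-type and 129S4/SvJae for the PPARα-null animals, so the loss of the receptor and the difference between the substrains cannot be told apart. RNA of several mice was pooled for each array, and the sources give different numbers of mice for a pool. With 1 pooled array a side no spread between mice can be measured, no test was made, and every difference below is a description of these pools. The free text of the wild-type Wy14643 sample repeats that of its control, and its title was followed.

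PPARα is a nuclear receptor that pairs with RXR on DNA and is activated by fatty acids and by synthetic agonists such as Wy14643. In liver it is best known for switching on fatty acid uptake, β-oxidation in mitochondria and peroxisomes, and ketone body synthesis. Agonists also enlarge the rodent liver, and the activated receptor is known to dampen inflammatory transcription. The genes of fatty acid oxidation were set aside here, and the account turns to the other functions of the liver, above all to those with less transcript in the wild-type pool.

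Of 22626 probe sets (Affymetrix controls left out), 20380 carry exactly 1 gene symbol and represent 12393 genes, each read from its brightest probe set. Values are the deposited GCRMA intensities on the linear scale. Background was set at 13.4, which is the 90th percentile of 94 probe sets for 55 genes silent in liver, and 7559 genes exceeded it on at least 1 of the Wy14643 arrays. Higher and lower mean a ratio of at least 1.5 between wild-type and PPARα-null. By that measure wild-type mice on Wy14643 had higher levels of 1268 genes (16.8%) and lower levels of 1352 (17.9%), while on the control diet 177 of 7271 genes (2.43%) were higher and 182 (2.5%) lower. The median log2 ratio over all genes was -0.02 on Wy14643. The deposited values are quantile normalized, which gives the arrays nearly the same distribution. A median near 0 and similar counts of higher and lower genes can follow in large part from that. Counted over probe sets, 2240 were higher and 2165 lower. The share of genes called depended on the intensity on the brighter of the Wy14643 arrays. Up to 100, 10.7% were higher and 11.9% lower. From 100 to 1000 these shares were 24.7% and 24.9%, from 1000 to 10000 25.0% and 27.4%, and above 10000 18.8% and 20.8%. List counts are to be read beside these shares.

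The differences reached far into both directions. A ratio of 4 or more was found for 188 lower and 193 higher genes, and one of 8 or more for 70 lower and 85 higher genes. Among the lower genes 129 exceeded background in PPARα-null mice and not in wild-type mice, and among the higher genes 131 did so the other way round. Leaving out the fatty acid oxidation list, of which 71 of 102 members were higher and 5 lower, 1197 of 7457 genes (16.1%) were higher and 1347 (18.1%) lower. Of genes with several probe sets on the array, all probe sets above background pointed the same way for 540 of 606 higher and 552 of 677 lower genes. These counts include genes with only 1 probe set above background, such as Rad51b, for which agreement was fixed in advance. They therefore overstate how far probe sets agreed. The wild-type Wy14643 array stands apart from the rest: its log2 values correlated with those of the other arrays at r = 0.960 to 0.969, against 0.992 to 0.995 among these, over all probe sets.

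**Figure D1:**
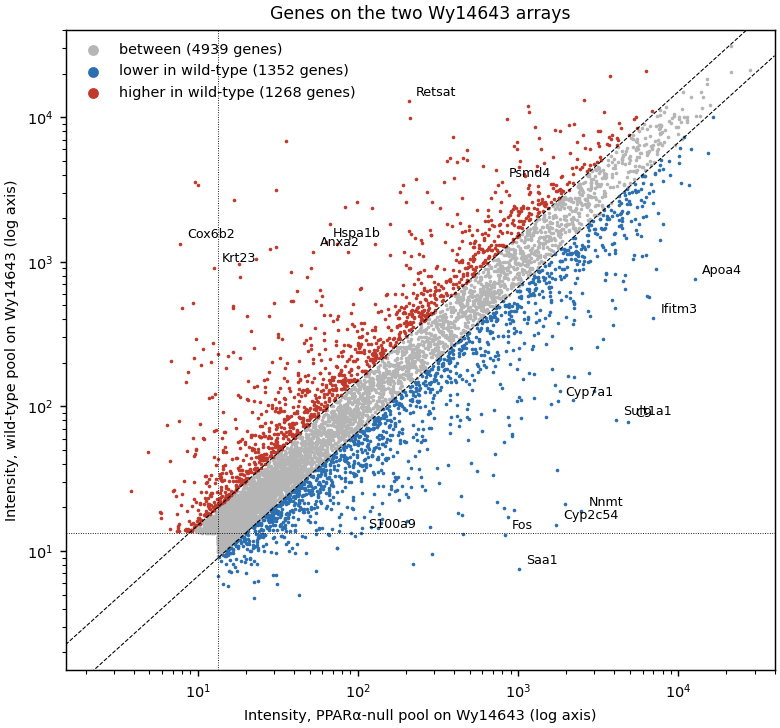
Intensity of the 7559 genes above background on at least 1 of the 2 Wy14643 arrays, PPARα-null on the horizontal and wild-type on the vertical axis, both logarithmic, with dashed lines at a ratio of 1.5 and dotted lines at the background of 13.4. The 1352 lower genes (blue) and 1268 higher genes (red) spread on either side of the band of 4939 genes in between.

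Ppara itself was 1250.1 in wild-type and 428 in PPARα-null mice on Wy14643, and 847 and 326 on the control diet, a difference of 2.92-fold on Wy14643. The position of its probe set relative to the disrupted part of the gene is not given in the sources used here. All 11 hepatocyte markers, among them Alb, Apoa1 and Ttr, were above background on all 4 arrays. Their summed intensity was 83812 in wild-type and 100645 in PPARα-null mice on Wy14643, against 100513 and 101006 on the control diet, and 5 of the 11 (Tat, Asgr2, Cps1, Ahsg and Asgr1) were lower in wild-type mice on Wy14643. In RNA from whole liver, fewer cells of a type and less RNA per cell cannot be told apart.

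The gene with the largest ratio among those lower in wild-type mice and above background on both arrays was Nnmt, which encodes nicotinamide N-methyltransferase. Its intensity was 18.9 in wild-type and 2479 in PPARα-null mice on Wy14643, and 791 and 1468 on the control diet. Wild-type mice on Wy14643 thus stood near background and 131-fold below PPARα-null mice, whereas the 2 control pools differed by 1.86-fold. Next in order stood Cyp2c54, a cytochrome P450 of the arachidonate-metabolizing Cyp2c family, with 15.2 against 1728 on Wy14643 and 1158 against 1709.7 on the control diet, wild-type given first here and throughout. Cyp4f14, which hydroxylates leukotriene B4, measured 21.3 against 1962 on Wy14643 and 2652 against 2856 on the control diet, so both genes were lowest on the wild-type Wy14643 array and high on the other arrays. The lower set also held the scaffold protein gene Frmd4b (24 against 440.0), the LIM domain gene Limd2 (46.7 against 722) and Cnp, a cyclic nucleotide phosphodiesterase of myelin (35.9 against 555). Their other probe sets gave smaller log2 ratios, down to -0.75 for Frmd4b, -1.02 for Limd2 and -0.89 for Cnp.

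**Figure D2:**
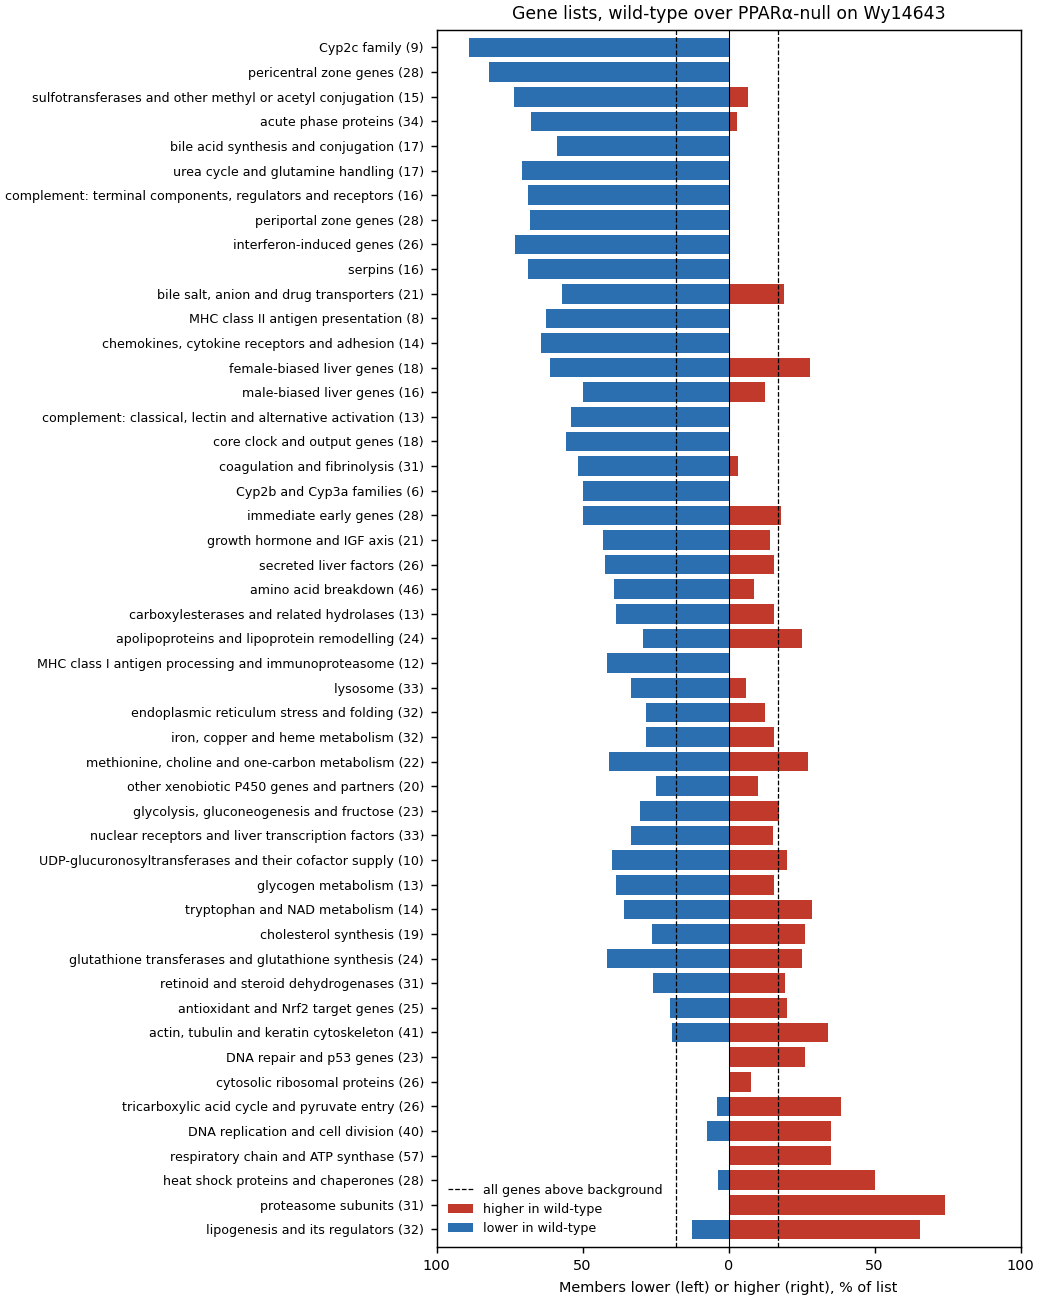
Share of each gene list that was at least 1.5-fold lower (blue, left) or higher (red, right) in wild-type mice, compared with PPARα-null mice on the same Wy14643 diet, with the number of members above background in brackets and dashed lines at the share over all genes. Lists are ordered by their median log2 ratio, from the Cyp2c family at -2.44 to lipogenesis and its regulators at 0.90. The last of these lists also holds lipid droplet genes.

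Bile acid synthesis lay on the lower side in wild-type mice. Of 17 genes of bile acid synthesis and conjugation above background, 10 were lower and 0 higher, with a median log2 ratio of -1.15. Cyp7a1, the rate-limiting enzyme of the classical route, had an intensity of 109 in wild-type and 1769 in PPARα-null mice on Wy14643, and 1368 and 1545 on the control diet, which left wild-type mice on Wy14643 16.2-fold below PPARα-null mice. Its second probe set gave a log2 ratio of -5.41. Akr1d1, the reductase that sets the A-ring of the steroid nucleus, followed with 253 against 2151 on Wy14643 and 1919.6 against 2341 on the control diet. Cyp8b1, which makes cholic acid by 12α-hydroxylation, was 96.3 against 482 on Wy14643 and 179 against 654 on the control diet, and it is the one of these genes that also stood far apart between the control pools (3.65-fold lower in wild-type). Lower too were Cyp39a1 (at least 7.21-fold), Cyp7b1 (3.36-fold), the FGF receptor Fgfr4 (3.21-fold), the amino acid conjugating enzyme Baat (2.63-fold) and Cyp27a1, which opens the alternative route (2.38-fold). The log2 ratios of the 3 probe sets of Fgfr4 ran from -1.68 to 0.33. The regulators Nr1h4 (FXR) and Nr0b2 (SHP) lay between the thresholds, with log2 ratios of -0.07 and -0.32.

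Among the transporters of bile salts, anions and drugs, 12 of 21 were lower and 4 higher (median log2 ratio -0.93). The uptake carriers of the basolateral membrane led the lower side. Slco1a4, an organic anion carrier, read 19.2 against 946 on Wy14643 and 487 against 826 on the control diet, and Slco1a1 read 14.6 against 284 on Wy14643 and 149 against 334 on the control diet. Slc22a26, of the organic anion transporter family, was 17.1 against 873 on Wy14643 and 1268 against 1117 on the control diet and differed 51.1-fold. The bile salt export pump Abcb11 measured 428 against 1567 on Wy14643 and 1658 against 1457 on the control diet, a smaller difference of 3.66-fold. The members on the other side were export pumps: Abcg2, the breast cancer resistance protein, was 3593 against 345 on Wy14643 and 447 against 361 on the control diet and so 10.4-fold higher, Abcb1b, a multidrug P-glycoprotein, was 4.0-fold higher, the sterol transporter Abcg8 1.84-fold, and Abcb4, which moves phosphatidylcholine into bile, 1.61-fold.

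8 of 9 Cyp2c genes were lower in wild-type mice and none was higher, with a median log2 ratio of -2.44, the lowest of all lists. Cyp2c70, which makes the muricholic acids of rodent bile, was 897 against 7288 on Wy14643 and 7428 against 7051 on the control diet, and Cyp2c50 was 541 against 3882 on Wy14643 and 4074 against 5375 on the control diet. Cyp2c29, a gene known as a target of the receptor CAR, was 2.2-fold lower. In the Cyp2b and Cyp3a families 3 of 6 were lower: Cyp3a16 (17.6 against 447 on Wy14643), Cyp3a44 (74 against 885) and Cyp3a25 (3447 against 6761), whereas Cyp2b10, Cyp3a11 and Cyp3a13 lay between the thresholds. Signals of such closely related genes can mix on short probes, so a ratio may belong to more than the gene named. Of the other drug-metabolizing P450 genes and their partners, 5 of 20 were lower (25%) and 2 higher (10%), against 17.9% and 16.8% of all genes. Brighter genes were lower more often, 24.9% from 100 to 1000 and 27.4% from 1000 to 10000, so the lower share of this list is near theirs. Cyp1a2, the caffeine-metabolizing target of the Ah receptor, was 647 against 4681 on Wy14643 and 3935 against 3742 on the control diet, while the epoxide hydrolase Ephx2 was 4.42-fold higher.

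Among conjugating enzymes the lists differed. Of 15 genes for sulfotransferases and other methyl or acetyl conjugation, 11 were lower and 1 higher (median log2 ratio -1.35). Sult1a1, the phenol sulfotransferase, was 80.2 against 4097 on Wy14643 and 4358 against 4177 on the control diet, that is, bright on every array except that of wild-type mice on Wy14643. Sult5a1 read 33.4 against 699.7 on Wy14643 and 244 against 950.3 on the control diet, and the estrogen sulfotransferase Sult1e1 read 64.8 against 915 on Wy14643 and 28.3 against 619.8 on the control diet. The last of these was low in both wild-type pools and high in both PPARα-null pools. The one member on the higher side was the indole methyltransferase Inmt (2.21-fold).

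For glucuronidation, 4 of 10 genes were lower, with Ugt2b37 at 8.2 against 220.3 and Ugt2b1 at 477 against 4013 on Wy14643, and 2 were higher, namely Ugt3a1 (5.15-fold) and Ugdh, which supplies UDP-glucuronate (2.1-fold). Glutathione transferases and glutathione synthesis split: 10 of 24 were lower and 6 higher. Gstm2 was 111 against 2215 on Wy14643 and 1242 against 2085 on the control diet and Gsta2 was 170.0 against 2791 on Wy14643 and 2204 against 2903 on the control diet, whereas Gstm4 was 648 against 103 on Wy14643 and 240.3 against 83 on the control diet and Ggct, a γ-glutamylcyclotransferase of the glutathione cycle, 424 against 27.9 on Wy14643 and 30.9 against 29.5 on the control diet. The wild-type Wy14643 array was therefore the lowest of the 4 for the first pair and the highest for the other pair. Among 13 carboxylesterases and related hydrolases 5 were lower, led by Ces2a (12.2-fold) and Ces1c (4.93-fold), and 2 were higher, Ces1e (3.65-fold) and Ces1d (1.52-fold).

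**Figure D3:**
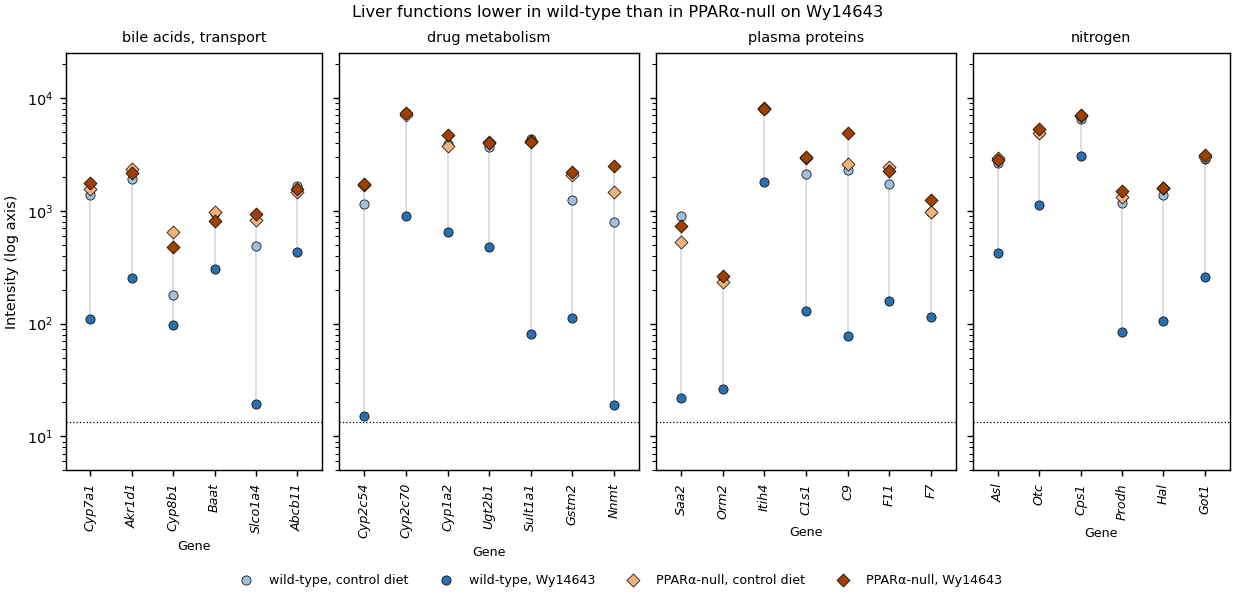
Intensity on the 4 arrays (logarithmic axis, 1 point per pooled array, dotted line at background) of named genes of bile acid metabolism and transport, drug metabolism, plasma proteins and nitrogen metabolism. The wild-type Wy14643 point (dark blue) is the lowest of the 4 for each gene shown, for example 109 for Cyp7a1 and 80.2 for Sult1a1.

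Plasma proteins of the acute phase were lower as a group: 23 of 34 members were lower in wild-type mice on Wy14643 and 1 higher, with a median log2 ratio of -1.31, while on the control diet 1 was lower and 1 higher. Saa1, a serum amyloid A apolipoprotein, had an intensity of 7.5 in wild-type and 1011 in PPARα-null mice on Wy14643, and 1721 and 1184 on the control diet, which puts wild-type mice on Wy14643 below background and at least 75.6-fold under PPARα-null mice. Its paralog Saa2 read 21.8 against 736 on Wy14643 and 897 against 525 on the control diet, from a probe set that may also bind related transcripts. Lcn2, the iron-binding lipocalin, was 56.6 against 820.5 on Wy14643 and 523 against 731 on the control diet, and the orosomucoid gene Orm2 was 26.3 against 263 on Wy14643 and 255 against 233 on the control diet. In each of these cases the other 3 arrays were close to each other compared with the wild-type Wy14643 array. Lower by smaller ratios were Saa4 (9.0-fold), Steap4 (5.54-fold), Itih4 (4.41-fold) and the interleukin-6 receptor gene Il6ra (3.94-fold). The member on the higher side was Il1rn, the interleukin-1 receptor antagonist (34.2 against 13.9), and Hp, Hpx, Cp and Lbp lay between the thresholds.

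The complement genes that passed 1.5-fold were all on the lower side, and the arms of the system were not counted separately. Of 13 genes of classical, lectin and alternative activation 7 were lower, and of 16 genes of the terminal components, regulators and receptors 11, with none higher in either list and median log2 ratios of -0.70 and -1.02. C1s1, a protease of the C1 complex, was 128 against 2992 on Wy14643 and 2103 against 2932 on the control diet. C9, which forms the pore of the membrane attack complex, was 77.9 against 4865 on Wy14643 and 2279.8 against 2581 on the control diet: PPARα-null mice on Wy14643 had the highest level of the 4 pools and wild-type mice on Wy14643 the lowest. The partner subunits C8b (62.4 against 924) and C8a (292 against 3392) were also lower on Wy14643, as were C1ra (9.33-fold), C2 (7.61-fold), the lectin pathway protease Masp1 (4.68-fold) and mannose-binding lectin Mbl2 (4.31-fold). C1qa, a macrophage product, was lower by 1.67-fold. The probe sets of Masp1 above background gave log2 ratios from -2.23 to -0.35 on Wy14643.

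Of 31 genes of coagulation and fibrinolysis 16 were lower and 1 higher (median log2 ratio -0.67). Factor XI (F11) was 159 against 2246 on Wy14643 and 1741 against 2457 on the control diet, and factor VII (F7), which starts the extrinsic route, was 114 against 1255 on Wy14643 and 978 against 977 on the control diet. Hgfac, the activator of hepatocyte growth factor, was 6.94-fold lower and Proz, the vitamin K-dependent protein Z, 4.96-fold. Prothrombin (F2), factor IX (F9) and the fibrinogen genes Fga, Fgb and Fgg lay between the thresholds, so the list did not move as a whole. The higher member was the protease inhibitor Tfpi2 (2121 against 888). Among serpins, the family of suicide inhibitors of serine proteases, 11 of 16 were lower and 0 higher. Serpina12, or vaspin, was 18.1 against 135 on Wy14643 and 33 against 221 on the control diet, Serpina6, the corticosteroid-binding globulin, was 818 against 4691 on Wy14643 and 3879.6 against 4818 on the control diet, and Serpina10, which inhibits factor Xa with protein Z, was 3.07-fold lower.

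The metabolism of nitrogen lay on the lower side as well. 12 of 17 genes of the urea cycle and glutamine handling were lower and 0 higher (median log2 ratio -1.10). Of the cycle's own enzymes, argininosuccinate lyase Asl was 420.2 against 2811 on Wy14643 and 2648 against 2933 on the control diet, ornithine transcarbamylase Otc was 1122 against 5310.2 on Wy14643 and 4874 against 4865 on the control diet and the entry enzyme Cps1 was 3069.8 against 6999.6 on Wy14643 and 6519.6 against 6887 on the control diet. The wild-type Wy14643 pool was the lowest of the 4 in all of these. Oat, which turns ornithine into glutamate, was lower by 3.46-fold and the ammonium channel Rhbg by 3.24-fold, while arginase Arg1 and glutamate dehydrogenase Glud1 lay between the thresholds. In amino acid breakdown 18 of 46 genes were lower and 4 higher. Proline dehydrogenase Prodh was 84.2 against 1505 on Wy14643 and 1175 against 1339 on the control diet, histidase Hal was 104 against 1608 on Wy14643 and 1379 against 1603 on the control diet, and the cytosolic aspartate aminotransferase Got1 was 259 against 3117 on Wy14643 and 2906 against 2978 on the control diet. Its mitochondrial partner Got2 was on the other side, 1.76-fold higher, as were Csad (1.86-fold), Mccc2 (2.36-fold) and Hibch (1.76-fold).

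In tryptophan and NAD metabolism 5 of 14 genes were lower and 4 higher. Beside Nnmt, the aldehyde oxidase gene Aox3 was lower with 13.2 against 455 on Wy14643 and 528 against 540.4 on the control diet, below background in wild-type mice on Wy14643 alone, while its neighbour in function Aox1 was 2.23-fold higher. Nampt, the rate-limiting enzyme of NAD salvage, was 2.71-fold lower. Of 22 genes of methionine, choline and one-carbon metabolism 9 were lower, led by the transsulfuration enzymes Cbs (4.37-fold) and Cth (3.37-fold), and 6 higher, led by the choline kinase Chkb, which was 522 against 30.1 on Wy14643 and 39.7 against 34.3 on the control diet.

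In sugar metabolism, 7 of 23 genes of glycolysis, gluconeogenesis and fructose were lower and 4 higher (median log2 ratio -0.20). Slc37a4, the glucose-6-phosphate carrier of the endoplasmic reticulum, was 40.5 against 507 on Wy14643 and 319 against 489.6 on the control diet, and the liver pyruvate kinase Pklr was 27.8 against 216 on Wy14643 and 357 against 307 on the control diet. The glucokinase regulator Gckr (4.08-fold), the triokinase Tkfc (5.71-fold), ketohexokinase Khk (2.81-fold) and Pck1, which commits carbon to gluconeogenesis (2.97-fold), were lower too. Gpd1, which links glycolysis to glycerol 3-phosphate, was 4.56-fold higher, with log2 ratios from 0.48 to 2.24 over its probe sets above background. In glycogen metabolism 5 of 13 genes were lower, with Ppp1r3c, a glycogen-targeting subunit of protein phosphatase 1, at 26.9 against 162 and Ugp2, which makes UDP-glucose, at 1115 against 6298 on Wy14643. Another probe set of Ppp1r3c gave a log2 ratio of -0.53.

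Zonal genes were lower at both ends of the liver lobule. 23 of 28 genes known to be expressed around the central vein were lower in wild-type mice and 0 higher, with a median log2 ratio of -1.58. 19 of 28 genes of the periportal zone were lower and 0 higher, with a median of -1.01. Many are the drug, bile acid and urea cycle genes named above, so these lists are not independent of them. Of the others, the dicarboxylate carrier Slc13a3 was 129 against 1826 on Wy14643 and 661 against 1273 on the control diet, the vitamin C enzyme Gulo (pericentral) was 4.77-fold lower, the polymeric immunoglobulin receptor Pigr (periportal) 5.37-fold and the mitochondrial aldehyde dehydrogenase Aldh1b1 8.79-fold. Apoa4, a periportal apolipoprotein, was 758 against 12665 on Wy14643 and 8067 against 13114 on the control diet.

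Genes that follow growth hormone and sex were also represented. In the growth hormone and IGF axis 9 of 21 genes were lower and 3 higher. The EGF receptor gene Egfr was 83.4 against 1041 on Wy14643 and 563 against 948 on the control diet, the IGF-binding protein gene Igfbp3 was 94.7 against 707 on Wy14643 and 419 against 444 on the control diet, and the feedback inhibitor Socs2 was 73.8 against 431 on Wy14643 and 644 against 575 on the control diet. Igf1 lay between the thresholds (log2 ratio -0.53), and Igfbp2 was 2.87-fold higher. Of genes with higher levels in male liver 8 of 16 were lower and 2 higher (Elovl3 and Cyp4a12a), against 6 lower and 1 higher of 16 on the control diet. Of genes with higher levels in female liver 11 of 18 were lower and 5 higher (Abcd2, Acot3, Rtn4, Vldlr and Hao2), against 1 lower and 4 higher on the control diet. All mice were male. Mup3, a major urinary protein gene, was 579 against 6356 on Wy14643 and 3913 against 5630.3 on the control diet, from a probe set that may bind its close relatives.

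Immediate early genes, which respond within minutes to growth factors and stress, gave some of the largest ratios. 14 of 28 were lower and 5 higher in wild-type mice on Wy14643, against 1 lower and 0 higher on the control diet. Fos was 12.9 in wild-type and 825 in PPARα-null mice on Wy14643, and 715 and 571 on the control diet, that is, below background in 1 pool and between 571 and 825 in the others. Egr1, a zinc finger factor, was 19.9 against 821 on Wy14643 and 731 against 502 on the control diet, Junb was 9.59 against 289 on Wy14643 and 219.6 against 175 on the control diet, and Ier2 was 18.3 against 425 on Wy14643 and 357 against 299.7 on the control diet. The same array was the lowest for the phosphatase gene Dusp1 (37.5 against 313 on Wy14643 and 415 against 363 on the control diet) and the antiproliferative gene Btg2 (28.2 against 253 on Wy14643 and 122 against 134 on the control diet). Zfp36, which destabilises cytokine mRNA, was 6.92-fold lower and Jun 4.69-fold. On the higher side stood Klf10 (5.63-fold), the stress sensors Gadd45b (at least 3.74-fold) and Gadd45g (2.74-fold), and Rhob (1.64-fold).

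Of core clock and output genes 10 of 18 were lower and 0 higher (median log2 ratio -0.68). The output factors Dbp (374 against 2218 on Wy14643 and 1301 against 1568 on the control diet) and Tef (84.3 against 478 on Wy14643 and 250.4 against 347 on the control diet) and the deadenylase gene Noct, or nocturnin (32.2 against 205 on Wy14643 and 278 against 151 on the control diet), were among them, as was the deubiquitinase gene Usp2 (15.5 against 140.0). The clock's own genes were divided. Cry2, Nr1d2 and Per1 were lower, with log2 ratios of -1.04, -0.75 and -0.63, while Arntl, Clock, Cry1 and Nr1d1 lay between the thresholds.

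Immune genes were lower without exception among those that passed 1.5-fold in 4 lists: 19 of 26 interferon-induced genes, 9 of 14 chemokine, cytokine receptor and adhesion genes, 5 of 8 genes of MHC class II presentation and 5 of 12 of MHC class I processing. The median log2 ratio of the interferon list was -0.99, and 16 of its members were lower when the smallest ratio that background allows was used for genes below it on 1 array. Ifitm3, which blocks virus entry at membranes, was the brightest and was 406 against 6975 on Wy14643 and 6120.3 against 6470.1 on the control diet. The immunity-related GTPase Irgm2 was 51.2 against 269 on Wy14643 and 233 against 226 on the control diet, and the guanylate-binding protein Gbp3 was 14.4 against 59.8 on Wy14643 and 43.2 against 50.8 on the control diet. The immunoproteasome subunits Psmb8 (26.5 against 176 on Wy14643 and 156 against 183 on the control diet) and Psmb10 (20.2 against 122 on Wy14643 and 130.1 against 95.1 on the control diet) and the class II genes H2-Aa (58.3 against 185 on Wy14643 and 249 against 244 on the control diet) and Cd74 (107 against 290.2 on Wy14643 and 377 against 356 on the control diet) were likewise lowest on the wild-type Wy14643 array. The chemokine Cxcl1 was 16.7 against 142 on Wy14643 and 89.3 against 347 on the control diet and interleukin-18 (Il18) was 34.9 against 144 on Wy14643 and 167 against 128 on the control diet.

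Markers of non-parenchymal cells are given beside these genes. Of 12 Kupffer cell and macrophage markers above background (15 on the array, with Cd68, Marco and Folr2 below background on both) 5 were lower, and their summed intensity was 563 in wild-type and 981 in PPARα-null mice on Wy14643, 1487 and 1926 on the control diet. Csf1r was 24.4 against 66.1 on Wy14643 and 84 against 112 on the control diet, and Clec4f was 27.6 against 41.3 on Wy14643 and 83.2 against 104 on the control diet. Of 11 stellate cell and fibroblast markers 9 were lower, with sums of 1561 and 3485 on Wy14643 and 2799 and 3325 on the control diet. Sinusoidal endothelial markers summed to 1112 and 995 on Wy14643, with 2 of 13 higher, and to 1839 and 2006 on the control diet, so both genotypes were lower on Wy14643. Neutrophil and monocyte markers summed to 74.2 and 79.5 on the control diet and to 72.7 and 276 on Wy14643, the latter carried by S100a8 (14.5 against 106 on Wy14643 and 12.9 against 15.7 on the control diet) and S100a9 (13.2 against 105 on Wy14643 and 14 against 17.6 on the control diet), which were high in PPARα-null mice on Wy14643 only. Lymphocyte markers summed to 101 and 115 on the control diet and to 86.4 and 175 on Wy14643, with Jchain at 12.4 against 46.8 and Ighm at 13.2 against 54.5 (log2 ratios from -2.05 to 0.12 over its probe sets), while Cd3e and Cd8a were below background on both arrays. The part of these cells in the immune lists was not tested.

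RefSeq promoters (GRCm38.p6, 250 bases before to 50 after the first listed start of each gene) were searched on both strands. The motif sought was the core of the interferon response element, GAAANNGAAA. It occurred in 943 of 27025 promoters (3.49%), in 3.15% of those of genes above background, in 53 of 1076 promoters of lower genes (4.93%) and in 26 of 1066 of higher genes (2.44%). Of 22 interferon-induced genes with a promoter 14 held it, 11 of the 16 lower ones and the remaining 3 among the other 6. The list consists of genes known to respond to interferon, so a high share is a property of the list. Stretches of 5 of the list's lower members that hold the core are shown, on the gene's own strand and upstream of the start, with the core or its complement in capitals. They lie at chr11:58214893-58214942 (plus strand, Irgm2), chr3:142559979-142560034 (plus, Gbp3), chr11:58199502-58199551 (plus, Igtp), chr8:71537567-71537622 (minus, Bst2) and chr19:34640765-34640833 (plus, Ifit1).
Irgm2: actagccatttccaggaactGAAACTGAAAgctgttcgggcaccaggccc
Gbp3: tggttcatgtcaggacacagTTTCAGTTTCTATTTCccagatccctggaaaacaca
Igtp: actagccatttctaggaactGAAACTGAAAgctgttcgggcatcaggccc
Bst2: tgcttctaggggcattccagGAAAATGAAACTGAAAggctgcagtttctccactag
Ifit1: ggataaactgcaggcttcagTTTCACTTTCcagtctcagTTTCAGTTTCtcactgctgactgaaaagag

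Gbp3 and Bst2 each hold a pair of overlapping cores, Ifit1 a pair of separate ones, and the windows of the neighbouring GTPase genes Irgm2 and Igtp share 48 of 50 bases. Igtp was 55.3 against 142 on Wy14643 and 94.2 against 83.8 on the control diet, and Bst2, or tetherin, was 63.9 against 135 on Wy14643 and 153 against 134 on the control diet. Ifit1 was dim on all arrays (6.86 against 29.6 on Wy14643 and 12.7 against 18.6 on the control diet) and below background in wild-type mice.

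The cAMP response element TGACGTCA, at which CREB binds, was found in 507 promoters (1.88%), in 3.12% of those of genes above background, in 1.67% of those of lower and in 3.56% of those of higher genes. It was found in those of Dusp1 and Btg2, which are 2 of the 11 lower immediate early genes with a promoter listed. The stretches shown lie at chr17:26508588-26508635 and chr1:134079294-134079341, both on the minus strand, with the element in capitals.
Dusp1: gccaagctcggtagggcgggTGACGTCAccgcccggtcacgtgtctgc
Btg2: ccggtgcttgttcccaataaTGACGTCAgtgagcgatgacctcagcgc

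Of genes higher in wild-type mice, outside fatty acid oxidation and above background on both arrays, Retsat, which saturates a double bond of retinol, had the largest ratio (62-fold). It was 12966 in wild-type and 209 in PPARα-null mice on Wy14643, and 2785 and 165 on the control diet, so the wild-type pools were above the PPARα-null pools on both diets. Rab30, a small GTPase of the Golgi, was 964 against 18.1 on Wy14643 and 154 against 23.3 on the control diet, and Rad51b, a recombination paralog, was 788 against 18.3 on Wy14643 and 131 against 18.6 on the control diet, again with both wild-type pools above both PPARα-null pools. A different pattern was seen in Prkdc, the catalytic subunit of the DNA-dependent protein kinase (479 against 16.6 on Wy14643 and 20.1 against 19.6 on the control diet), in Anxa2, a calcium-dependent membrane-binding annexin (1178 against 52.6 on Wy14643 and 35.3 against 45.2 on the control diet), and in the keratin gene Krt23 (909.6 against 12.7 on Wy14643 and 14.1 against 13 on the control diet), for which only wild-type mice on Wy14643 had a high level. One more probe set of Anxa2 above background gave a log2 ratio of 0.54. Krt23 was below background in PPARα-null mice on Wy14643, and its ratio was at least 68-fold. Below background on that array as well were Cox6b2, a cytochrome oxidase subunit known from testis (at least 99.8-fold higher, 1334 against 7.76 on Wy14643 and 45.2 against 6.71 on the control diet), the laminin chain Lamb3 (479.8 against 8.01 on Wy14643 and 6.88 against 8.67 on the control diet), the integrin Itga6 (275 against 12.6 on Wy14643 and 19.5 against 17.2 on the control diet), the surface glycoprotein Cd24a (249 against 10.8 on Wy14643 and 8.12 against 12.2 on the control diet) and the cytokine receptor chain Csf2rb (202 against 12.2 on Wy14643 and 13.1 against 11.7 on the control diet). Of 10 cholangiocyte markers 7, among them Krt7, Krt19 and Epcam, were below background on both arrays. Of the other 3, Cdh1 was 99.6 against 243 on Wy14643 and 259 against 382 on the control diet, Sox9 lay between the thresholds and Pkhd1 was barely above background in wild-type mice (14 against 9.24 on Wy14643). Their summed intensity was 141 and 274 on Wy14643 and 284 and 411 on the control diet.

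Proteasome genes lay on the higher side. 23 of 31 subunits had higher levels in the wild-type Wy14643 pool and 0 a lower one (median log2 ratio 0.84), against 0 higher and 0 lower on the control diet. Psmd14, the deubiquitinase of the lid, was 946 against 199.7 on Wy14643 and 294 against 284 on the control diet, and the ubiquitin receptor Psmd4 was 3549 against 793 on Wy14643 and 878 against 729 on the control diet. The log2 ratios of the 3 probe sets of Psmd4 on Wy14643 ran from 0.41 to 2.40. The core particle subunits Psma7 (2.98-fold), Psma4 (2.93-fold) and Psmb2 (3.2-fold) and the ATPase Psmc1 (2.43-fold) were higher as well. The interferon-inducible subunits Psmb8 and Psmb10 were on the lower side, as given above. Nfe2l1, the factor known to drive proteasome genes when proteolysis is limiting, was 108 against 22.5 on Wy14643 and 36 against 20 on the control diet.

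Heat shock proteins and chaperones showed a similar picture: 14 of 28 were higher and 1 lower (median log2 ratio 0.58). Hspa1b, the inducible Hsp70, was 1364 against 63.4 on Wy14643 and 137 against 186 on the control diet, and its 3 probe sets gave log2 ratios from 4.43 to 6.24, although near-identical Hspa1a can contribute to them. The small heat shock protein Hspb1 was 224 against 15.4 on Wy14643 and 20.2 against 15.7 on the control diet, and the Hsp110 relative Hspa4l was 149.6 against 20.6 on Wy14643 and 21.4 against 21.7 on the control diet. Hspd1, the mitochondrial Hsp60, was 9149 against 4274 on Wy14643 and 4869 against 4699 on the control diet, and its cochaperonin Hspe1 was 4369.6 against 2759.7 on Wy14643 and 2767 against 2824 on the control diet. The genes of this pair sit head to head in the genome. The lower member was Hspb8 (524 against 1151 on Wy14643 and 862 against 930.4 on the control diet). Over its 3 probe sets the log2 ratios on Wy14643 ran from -1.14 to -0.03. The heat shock element GAANNTTCNNGAA was found in 143 promoters (0.529%), in 0.469% of those of genes above background and in those of 2 of 13 higher list members, Hsph1 and Hspe1. That of Hspe1, at chr1:55088039-55088096 (plus strand), holds overlapping matches on both strands, in capitals.
Hspe1: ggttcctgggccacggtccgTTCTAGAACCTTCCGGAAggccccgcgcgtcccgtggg

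**Figure D4:**
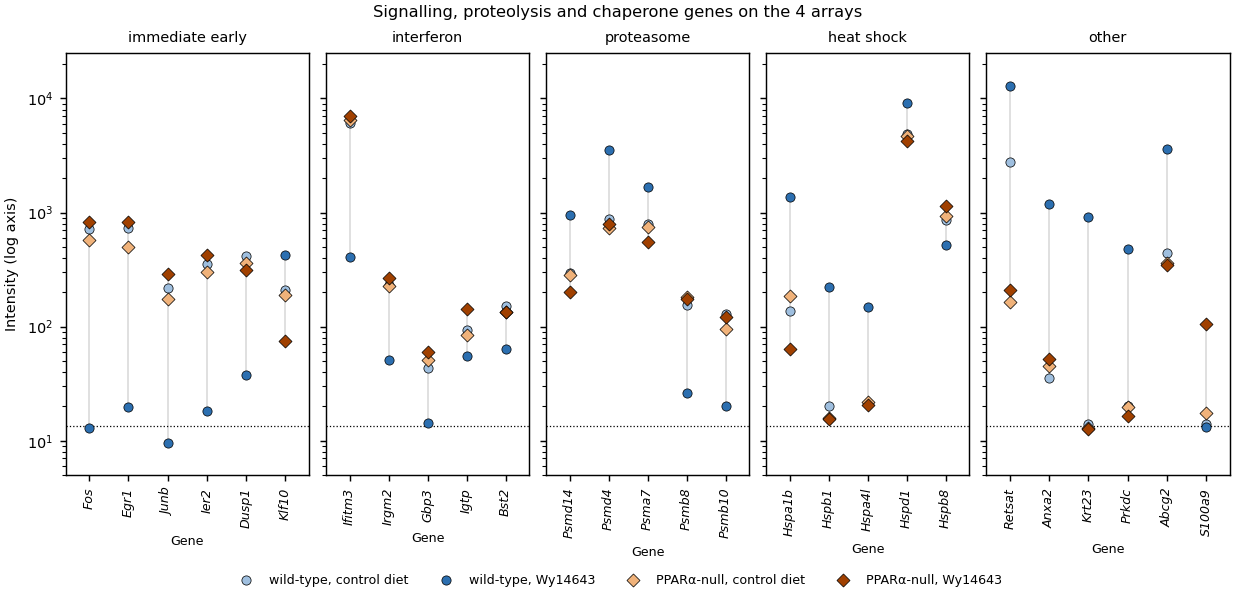
Intensity on the 4 arrays (logarithmic axis, 1 point per pooled array, dotted line at background) of named immediate early, interferon-induced, proteasome and heat shock genes and of 6 further genes. Wild-type mice on Wy14643 (dark blue) are at or near the background of 13.4 for Fos, Junb and Gbp3 and are the highest of the 4 pools for Psmd4 at 3549 and Hspa1b at 1364.

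Of the mitochondrial energy genes, 20 of 57 subunits of the respiratory chain and ATP synthase were higher, 0 lower and 37 between the thresholds, with a median log2 ratio of 0.49. Cytochrome c (Cycs) was 8990.3 against 2231 on Wy14643 and 3278 against 3072 on the control diet, the complex IV subunit Cox8a was 880.2 against 258 on Wy14643 and 271 against 258 on the control diet and the complex I subunit Ndufs4 was 1396 against 541 on Wy14643 and 631 against 649.8 on the control diet. In the tricarboxylic acid cycle and pyruvate entry 10 of 26 genes were higher, among them Suclg1 (3.74-fold), Dlst (3.06-fold) and citrate synthase Cs (2.12-fold), and Pdk2, which inhibits pyruvate dehydrogenase, was 1.82-fold lower. Of the carriers of the inner membrane, the ADP/ATP exchanger Slc25a4 was 906 against 50.9 on Wy14643 and 72.6 against 40.4 on the control diet and Slc25a30 was 1822 against 67.1 on Wy14643 and 229.9 against 72.1 on the control diet.

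For growth and genome maintenance, 14 of 40 genes of DNA replication and cell division were higher (12 at the smallest ratio that background allows) and 3 lower. The replicative helicase subunits Mcm7 (166 against 42.4 on Wy14643 and 30.3 against 41.1 on the control diet), Mcm6 (44.7 against 12.7 on Wy14643 and 14.4 against 11 on the control diet) and Mcm3 (2.11-fold) were higher, and so was the cell cycle inhibitor Cdkn1a (3.32-fold). Mki67, the usual marker of cycling cells, lay between the thresholds. On the lower side, Mcm10 was 57.4 against 194 on Wy14643 and 284 against 174 on the control diet and Cdkn1b was 2.2-fold lower. Of DNA repair and p53 genes 6 of 23 were higher and 0 lower, with Rad51d (3.55-fold), the death receptor Fas (4.0-fold), Apex1 (3.21-fold) and the p53 target Ccng1 (2.8-fold) next to Rad51b and Prkdc. That is 26.1% higher, against 16.8% of all genes and 24.7% of those with an intensity from 100 to 1000. Of the cytoskeleton list 14 of 41 were higher, with the tubulins Tubb2a (3.09-fold), Tubb4b (2.74-fold) and Tubb5 (2.47-fold), and 8 lower, with Tmsb10 (3.43-fold) and Cnn3 (2.58-fold). Another probe set of Tubb5 gave a log2 ratio of -0.39.

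Lipid functions other than oxidation were divided. 21 of 32 genes of lipogenesis and lipid droplets were higher and 4 lower (median log2 ratio 0.90), with 19 higher at the smallest ratio that background allows. Without the agonist 8 of 27 members already had more transcript in wild-type mice and 0 less (median 0.30). The droplet protein Plin5 was 523 against 9.43 on Wy14643 and 42 against 8.03 on the control diet, the elongase Elovl3 was 498 against 16.7 on Wy14643 and 25.4 against 14.8 on the control diet and malic enzyme Me1 was 6353 against 948 on Wy14643 and 1789.5 against 1169.7 on the control diet, but the phosphatidate phosphatase Lpin1 was 109 against 983 on Wy14643 and 1191 against 1723 on the control diet and Thrsp, a thyroid hormone-responsive lipogenic gene, 742 against 4523 on Wy14643 and 5191 against 4871 on the control diet. The fatty acid binding protein gene Fabp4 and the droplet gene Cidec, both known from fat tissue, were 2389.8 against 83.5 and 293 against 9.81 on Wy14643, and Cidea, the third of the 6 adipocyte markers above background that was higher, was 47 against 9.58. Of these markers Car3 (6116 against 10292 on Wy14643 and 10850.0 against 10077 on the control diet) and Pck1 were lower, while Adipoq, Lep, Retn and Adig were below background on both arrays. The summed intensity of the list, most of it from Car3 and Pck1, was 12351 in wild-type and 20776 in PPARα-null mice on Wy14643, against 19649.5 and 20436 on the control diet. The part of fat cells in these values was not tested. In cholesterol synthesis 5 of 19 genes were higher and 5 lower, 26.3% each way, against 16.8% and 17.9% of all genes. Of apolipoproteins and lipoprotein remodelling genes 6 of 24 were higher, with the phospholipid transfer protein Pltp at 3403 against 192 on Wy14643 and 758 against 508 on the control diet, and 7 lower, with the lipase inhibitor Angptl8 at 19 against 120.0 on Wy14643 and 212 against 208 on the control diet. Retinoid and steroid dehydrogenases were 6 higher and 8 lower of 31: Rdh16f2 was 36.6 against 1761 on Wy14643 and 1705 against 2197 on the control diet and Hsd11b1, which regenerates active glucocorticoid, was 568 against 6559 on Wy14643 and 6134 against 6523 on the control diet, whereas Hsd17b11 was 9.26-fold and Dhrs4 7.6-fold higher.

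Of the nuclear receptors and liver transcription factors 11 of 33 were lower and 5 higher. Cebpa, a master factor of hepatocyte genes, was 714 against 2282 on Wy14643 and 1867 against 1842 on the control diet, and the Ah receptor gene Ahr was 242 against 846 on Wy14643 and 830.0 against 973 on the control diet. Hnf4a, Nr1i3 (CAR), Nr1i2 (PXR) and Foxa1 lay between the thresholds. Beside Ppara and Nfe2l1, the oxidative stress factor Nfe2l2 (2.02-fold) and the lipogenic factor Srebf1 (1.89-fold) were higher.

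The control diet shows what differed between the genotypes without the agonist, on arrays that the Wy14643 comparison does not use. Of 6495 genes above background on all 4 arrays, 1221 were lower in wild-type mice on Wy14643, and 81 of these (6.63%) were lower on the control diet too, where 2.28% of the 6495 genes were lower. Of the 1118 genes higher on Wy14643, 117 (10.5%) were higher on the control diet too, against 2.34% of all. Read from the other side, 54.7% of the 148 genes lower and 77.0% of the 152 genes higher on the control diet were so on Wy14643. Both diets carry the same difference of substrain. The spread of the log2 ratios over these genes was 0.33 (SD over genes) on the control diet and 0.96 on Wy14643.

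Genes lower on both diets with the largest ratios were Sult1e1, Cxcl14, Serpina12, Sult5a1, Cxcl1, Cyp8b1, Serpinb1a and Gja1. The chemokine Cxcl14 was 16.1 against 204 on Wy14643 and 15.9 against 202 on the control diet, with the 2 wild-type pools as alike as the 2 PPARα-null pools. The elastase inhibitor Serpinb1a was 23.6 against 70.2 on Wy14643 and 28.2 against 104 on the control diet, and the gap junction gene Gja1 was 24.9 against 66.4 on Wy14643 and 68.3 against 200.4 on the control diet, with log2 ratios on Wy14643 from -1.42 to -0.35 over its probe sets. Higher on both diets, outside fatty acid oxidation, were Retsat, Rad51b, Rab30 and Angptl4, which inhibits lipoprotein lipase (2600.4 against 199.8 on Wy14643 and 1011 against 212 on the control diet). The pantetheinase gene Vnn1 was 6895 against 35.9 on Wy14643 and 1561 against 17.6 on the control diet.

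**Figure D5:**
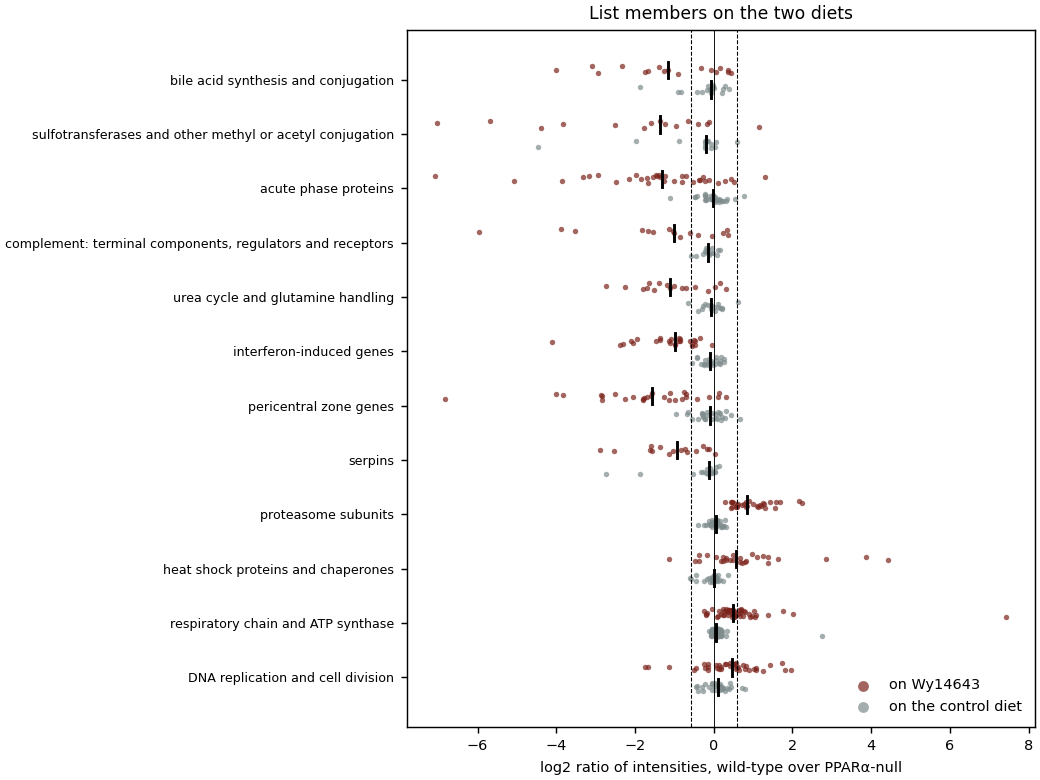
log2 ratio of wild-type over PPARα-null for each member of 12 lists, on Wy14643 (dark red, above) and on the control diet (grey, below), with the list median as a black bar and dashed lines at a ratio of 1.5. On the control diet the medians lie near 0, for example -0.02 for acute phase proteins and 0.05 for proteasome subunits, whereas on Wy14643 they are -1.31 and 0.84.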

How the data were processed

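The authors hybridized pooled liver RNA (TRIzol) to MOE430A arrays, 1 per group, and deposited intensity values computed by GCRMA, a background correction and quantile normalization of probe intensities (version 2.20, per the submitters' notes). The amount of RNA labelled is described differently in the sources. Of 22690 probe sets 64 controls were left out. Symbols came from the platform annotation: 691 probe sets carry several and 1555 none, and neither were named.

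The deposited intensities were converted to log2, and a gene was called at a fold of 1.5 or more. The brightest probe set (mean log2 over the arrays) stood for a gene. Below background on 1 array, the fold printed is the smallest that background allows. Lists were counted over members above background on at least 1 array of a pair. Named were the 30 lower and 20 higher genes of largest ratio, 10 each way below background on 1 array, up to 4 list members each way, 8 each way on both diets, and markers. Others were chosen after their values were seen. Members and lists were chosen with earlier results of these data known. The 49 pathway and 9 marker lists came from general knowledge. No tests were made. Promoters and coordinates are RefSeq's (GRCm38.p6). The calculation was tested on simulated data. Python 3.11.15, pandas 2.3.3, R 4.3.3 and limma 3.58.1 (cyclic loess) were used.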

Additional observations from a re-analysis of the deposited data

Results flagged for a closer look

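For 7 of the named genes wild-type and PPARα-null mice differed by at least 1.5-fold in opposite directions on the 2 diets, with 1 pooled array on each side, so that the difference between the diets was not tested. Lower in wild-type mice on Wy14643 and higher on the control diet were Saa2, with log2 ratios of -5.07 and 0.77, Noct, with -2.67 and 0.88, the glutathione transferase gene Gstm3, with -2.51 and 0.67, and the replication gene Mcm10, with -1.75 and 0.71. Higher on Wy14643 and lower on the control diet were Fabp4, with 4.84 and -0.68, the galectin gene Lgals1, with 1.73 and -0.63, and Csad, which makes hypotaurine for taurine synthesis, with 0.89 and -1.46. In all, 25 of the 6495 genes above background on the 4 arrays had such opposite ratios.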

How the results depend on the processing

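Totals, list counts, list medians and named genes were recomputed with 32 added before log2, a floor at background and centring on bright probe sets. Further settings were cyclic loess, the median over a gene's probe sets, no _s_at or _x_at probe sets, and other or no background. A 2-fold threshold was applied to totals and list counts only. Motif shares, marker sums and array correlations were not recomputed. The named genes recomputed were the 316 picked by rank, and genes named here outside those ranks were not recomputed singly. A few of the 316 had no value left without _s_at and _x_at probe sets or at another background. Among the ratios recomputed, the direction of all but 1 was kept: Lss had a log2 ratio of -0.66 without _s_at and _x_at probe sets, against 0.87 with them. In 31 further cases a named gene kept its direction and no longer reached 1.5-fold: 16 with 32 added (among them Il1rn and Pkhd1), 8 with the median over probe sets (among them Hspb8, Txnip, Csf1r and Ighm), 3 without _s_at and _x_at probe sets (among them Gja1), 2 with cyclic loess (Ces1d and Rplp0) and 2 with the floor (Pkhd1 and Ngp).

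With a 2-fold threshold 1080 probe sets were higher and 1026 lower, and 636 genes higher and 690 lower. On the control diet 60 genes were then higher and 35 lower, and 44 were higher and 19 lower on both diets. With 32 added, 1448 probe sets were higher and 1326 lower, 100 genes higher and 63 lower on the control diet, and 42 lower on both diets. Of the recomputed list counts 61 moved, that is, by more than 1.5-fold or to or from none, and 1001 did not. Among those that moved, 39 did so at the 2-fold threshold and 11 with 32 added. The count of lower interferon-induced genes ranged from 10 to 19.

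A list median is called past 1.5-fold here where it is beyond 0.58 in log2. With 32 added, these medians no longer were: -0.54 for the Cyp2b and Cyp3a families, -0.40 for complement activation, -0.54 for MHC class II, -0.52 for interferon-induced genes, -0.37 for chemokines, -0.43 for male-biased genes, -0.33 for the clock, -0.24 for neutrophil, -0.23 for lymphocyte and 0.52 for adipocyte markers. Without a background level, medians fell short at -0.54 for transporters, -0.18 for the Cyp2b and Cyp3a families, -0.54 for coagulation, -0.27 for MHC class II, -0.18 for chemokines, -0.21 for male-biased genes, -0.54 for the clock, -0.35 for neutrophil, -0.24 for lymphocyte and 0.35 for adipocyte markers. A floor at background gave -0.32 for neutrophil and -0.53 for lymphocyte markers. The median over probe sets gave 0.60 for heat shock proteins, now past the threshold, and -0.37 for lymphocyte markers. Without _s_at and _x_at probe sets the medians were -0.57 for coagulation, -0.39 for male-biased genes and -0.51 for neutrophil markers, and 0.69 for heat shock proteins, -0.67 for MHC class I processing and -0.66 for Kupffer cell markers came past the threshold. In these cases the cause was not tested. Of all list medians recomputed, 442 stayed on their side of the threshold. Direction was checked only for medians past it.

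No paired analysis was possible because each group has 1 array. Precision is limited by the number of arrays, and for dim genes by intensities near background.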

Other observations

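Of 32 genes of endoplasmic reticulum stress and folding 9 were lower in wild-type mice on Wy14643, led by Herpud1, which helps clear misfolded proteins (806 against 1986 on Wy14643 and 1644 against 2496 on the control diet), and Xbp1, a factor of the unfolded protein response (1098 against 2510.2 on Wy14643 and 2067 against 2220.1 on the control diet), and 4 were higher, led by Creb3l3 (2.52-fold). The 4 probe sets of Xbp1 gave log2 ratios from -1.28 to -0.51 on Wy14643. The shares of this list were 28.1% lower and 12.5% higher, against 17.9% and 16.8% of all genes. Among all genes with an intensity from 1000 to 10000, 27.4% were lower and 25.0% higher. Of 33 lysosomal genes 11 were lower, with the protective protein Ctsa at 451 against 1575 on Wy14643 and 1311 against 1186 on the control diet, and 2 higher. Among 26 secreted liver factors 11 were lower, including Lect2 (540.0 against 2219 on Wy14643 and 1125 against 1801 on the control diet) and Itih1 (3.23-fold), and 4 higher. Cytosolic ribosomal proteins were 2 higher and 0 lower of 26.

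In iron, copper and heme metabolism 9 of 32 genes were lower, led by the metal ion carrier Slc39a14 (36.8 against 240.5 on Wy14643 and 279 against 277 on the control diet) and the metallothionein gene Mt2 (407 against 1467 on Wy14643 and 1642 against 1430.2 on the control diet), and 5 were higher, led by the biliverdin reductase Blvrb (2371 against 1071 on Wy14643 and 751 against 851 on the control diet). The shares of this metal and heme list were 28.1% lower and 15.6% higher, against 17.9% and 16.8% of all genes. The antioxidant and Nrf2 target list was near those shares, with 20% each way. Of its 25 genes 5 were higher, with Srxn1, which repairs peroxiredoxins, at 140.1 against 63.7 on Wy14643 and 46.8 against 44.3 on the control diet, and 5 lower. One of these was Txnip at 51 against 118 on Wy14643 and 458 against 327 on the control diet, whose 2 probe sets point in opposite directions on Wy14643, with log2 ratios of -1.21 and 0.36. The classical targets Nqo1, Hmox1 and Gclc lay between the thresholds, with log2 ratios of 0.25, -0.11 and 0.29. Other targets passed 1.5-fold: Gclm and Osgin1 were lower (-0.86 and -0.81) and Me1 was higher (2.75). The antioxidant response element core TGACNNNGC occurred in 12.5% of all promoters, 15.02% of those of genes above background, 14.9% of those of higher and 13.2% of those of lower genes.

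A direct repeat of the half-site AGGNCA spaced by 1 base, the kind of site that PPARα and RXR or HNF4A bind, occurred in 103 of 27025 promoters (0.381%) and in 20 of 6187 of genes above background (0.323%). It was found in 8 of 1076 promoters of lower genes (0.743%) and in 0 of 1066 of higher genes. Only exact matches were counted, and sites outside this window were not searched. Of 77 promoters of the fatty acid oxidation list 1 held the repeat. The counts therefore do not show which genes lack such sites. Erythroid markers summed to 51.7 in wild-type and 50.4 in PPARα-null mice on Wy14643.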
